A study of Mus musculus with 10 samples.

Results

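The ribosomal protein genes of the cytosolic ribosome were examined in whole lung of mice fed a fish oil diet (FO) or a coconut oil control diet (CO). Members were chosen by name alone, as every gene symbol of the count table that starts with Rpl (large subunit) or Rps (small subunit), leaving out the Rps6 kinases, Rps19bp1 and symbols marked as pseudogenes. This gave 86 of the 24059 gene symbols, 52 of the large and 34 of the small subunit. Of these, 73 had enough counts to be tested, 41 of the large and 32 of the small subunit, and the other 13 are accounted for at the end. The name rule misses some genes that also encode ribosomal proteins, such as Fau and Gnb2l1 (an older symbol of Rack1).

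Lung RNA from 5 FO and 5 CO mice was sequenced, each mouse being 1 sample. All were female C57Bl/6 mice that started their diet at 6 weeks of age, stayed on it for 8 weeks and were 14 weeks old at sampling, and their lungs were flushed with PBS after pulmonary function testing. By the sample labels both diets contained 19% fat and 0.2% cholesterol. In the FO diet menhaden fish oil supplied 91% of the fat and corn oil 9%. In the CO diet coconut oil supplied the saturated fat (78%), olive oil the monounsaturated (13%) and corn oil the polyunsaturated fat (9%). The study's own diet table departs from the labels, with less cholesterol in FO than in CO and slightly different fat shares for CO. Both groups were thus on a high-fat diet, and no mice on normal chow were compared. The comparison asks whether the type of dietary fat went with a different level of these mRNAs in the lung. Whole lung mixes many cell types, so that fewer cells of a type and less RNA per cell cannot be told apart.

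Ribosomes translate mRNA into protein. The small subunit reads the mRNA and the large subunit joins the amino acids. Each is built from ribosomal RNA and a set of proteins, most of them needed in near equal amounts. Ribosomal protein genes are therefore among the most evenly and most strongly expressed genes of most cells. Their mRNAs typically begin with a C followed by a stretch of pyrimidines (C or T in the gene), the 5′ terminal oligopyrimidine or TOP element, through which growth signals of the mTOR pathway set their translation. Their promoters commonly lack a TATA box and often hold sites for ETS-family factors such as GABP.

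These known features were looked up in the RefSeq promoters of the mouse build GRCm38.p6, which reach from 250 bases before to 50 bases after an annotated start. Promoters were matched by symbol for 65 members, 77 promoters in all. A stretch of at least 7 C or T that begins with C and starts within 10 bases of the annotated start, on the sense strand, was present in 26 of the 77 promoters (33.8%), against 11.1% of all 32851 promoters. The share was 31.9% for the large and 36.7% for the small subunit. It was not found in the promoters of other members described below, such as Rpl12, Rplp0 and Rps25. Windows of 30 bases are shown for some described members that hold it, an element that the name rule did not use. They run 5′ to 3′ on the gene's strand, the annotated start is their 11th base, and capitals mark the pyrimidine stretch.
Rps24: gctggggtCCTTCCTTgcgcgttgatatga, at chr14:24490668-24490697, forward strand.
Rps9: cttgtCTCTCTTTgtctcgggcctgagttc, at chr7:3704031-3704060, forward strand.
Rpl35: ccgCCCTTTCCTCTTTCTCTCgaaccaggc, at chr2:39005112-39005141, reverse strand.
Rps26: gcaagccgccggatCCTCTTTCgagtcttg, at chr10:128626487-128626516, reverse strand.
Rps12: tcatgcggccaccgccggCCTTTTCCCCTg, at chr10:23787190-23787219, reverse strand.
Rplp2: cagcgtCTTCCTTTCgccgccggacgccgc, at chr7:141447641-141447670, forward strand.
Rps19: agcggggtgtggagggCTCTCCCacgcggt, at chr7:24884903-24884932, forward strand.
Of the annotated starts of Rps19 the last is shown, and the windows at the other starts held no such stretch. The stretch began 8 bases after the annotated start in Rps12, 6 after it in Rps19 and 4 after it in Rps26.

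The ETS core CCGGAAG, searched on both strands, was found in 27 of the 77 promoters (35.1%), against 8.86% of all promoters and 11.6% of those of protein-coding genes. AAGATGG, the core of YY1 sites, was found on either strand in 15.6% of member promoters and 6.34% of all. TATAAA from 40 to 20 bases before the start, on the sense strand, was found in 1 member promoter (1.3%), against 1.87% of all. No match says only that these letters are not in the window searched. Windows around the ETS core are shown in the same orientation, with the core in capitals, for small subunit members of which Rps26 had the lowest log2 fold change of all.
Rps26: ttaatcttccgCCGGAAGgttaaatagttc, at chr10:128626702-128626731, reverse strand.
Rps25: cacccattgccCCGGAAGtactctctcgag, at chr9:44407630-44407659, forward strand.
Rps21: ctttctttgcaCCGGAAGcggaagttaaaa, at chr2:180257280-180257309, forward strand.

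The libraries were shallow and uneven. Counts on genes ranged from 229766 to 1124963 per mouse, and after leaving out Rn45s, the 45S ribosomal RNA precursor (21.8% to 87.0% of counts), 45177 to 473254 remained. FO mouse 2 and CO mouse 5 stood apart: the nuclear RNA Malat1 took 8.53% and 6.15% of what lay outside Rn45s there, against 0.14% to 1.05% in the other mice. Small nucleolar RNA genes took 2.35% in FO mouse 2, where the rest of the FO group had 0.10% to 0.45%. They took 1.36% in CO mouse 5, not far above the 1.16% of CO mouse 3. Lung identity was checked on 10 marker genes such as Sftpc and Scgb1a1, all of which had counts. Their summed level was 3090 to 4655 CPM (counts scaled to a common library size with edgeR's TMM factors) on FO and 3236 to 4245 on CO.

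With all mice included, the ribosomal protein genes as a group differed less between the diets than between mice of 1 diet. Their share of counts outside Rn45s in FO mice 1 to 5 was 9.89%, 5.71%, 10.03%, 10.4% and 11.9%. In CO mice 1 to 5 it was 11.1%, 8.79%, 7.89%, 9.20% and 6.29%. The groups overlapped in range, through FO mouse 2 and CO mouse 1. The other FO mice (9.89% to 11.9%) lay above the other CO mice (6.29% to 9.20%). FO mouse 2 and CO mouse 5 were the lowest of their diets. The means were 9.60% ± 2.32 on FO and 8.65% ± 1.75 on CO (SD, n = 5 each), so that the difference was smaller than the spread between mice. The 95% exact Clopper-Pearson interval was 5.64% to 5.77% in FO mouse 2 and 11.7% to 12.1% in FO mouse 5. Counting error, which is all that such an interval covers, was therefore small beside the 2.09-fold range between mice. Without the 2 mice rich in Malat1 the share was 10.6% ± 0.93 on FO and 9.24% ± 1.34 on CO (SD, n = 4 each). The difference between these means was larger than the SD on FO and near that on CO. The groups still overlapped (9.89% to 11.9% and 7.89% to 11.1%), through CO mouse 1 alone, the mouse with the fewest counts outside Rn45s. How far Malat1 or the kind of library entered the share was not tested.

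**Figure D1:**
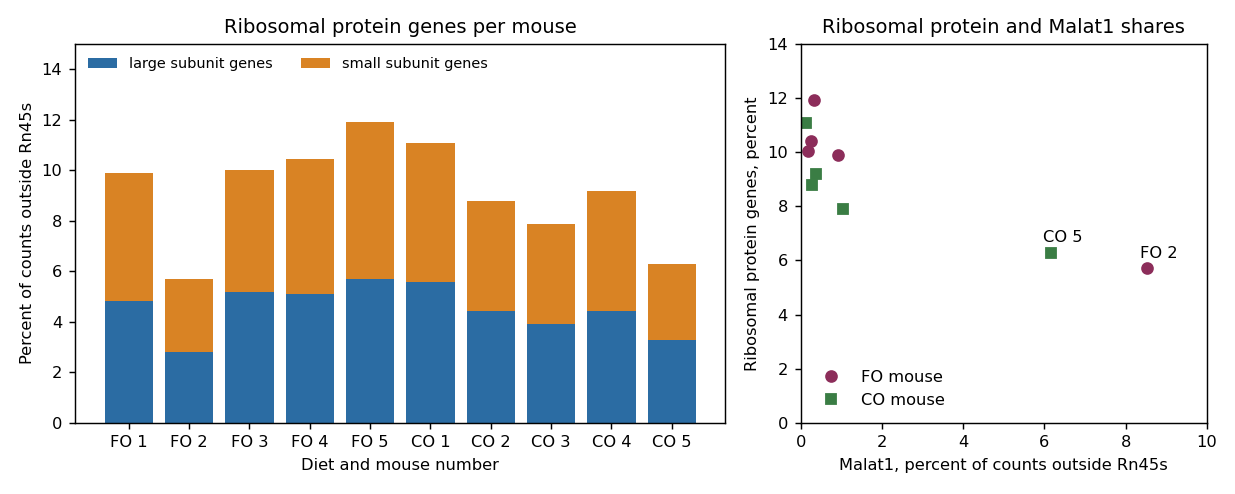
The left panel stacks the large and small subunit shares of the counts outside Rn45s (percent, vertical axis) for each mouse, and the right panel plots the summed share (percent) against that of Malat1 (percent), with 1 point per mouse. The shares run from 5.71% in FO mouse 2 to 11.9% in FO mouse 5, both subunits take near equal parts in every mouse, and the 2 mice with Malat1 at 6.15% or more have the lowest ribosomal protein shares.

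Large and small subunit genes moved together from mouse to mouse. The large subunit genes took 4.72% ± 1.11 of the counts on FO and 4.32% ± 0.84 on CO, and the small subunit genes 4.88% ± 1.23 and 4.33% ± 0.93 (SD, n = 5 each). The ratio of large to small subunit counts was 0.954, 0.970, 1.06, 0.957 and 0.910 in FO mice 1 to 5. In CO mice 1 to 5 it was 1.01, 1.01, 0.976, 0.929 and 1.10. The ratio thus varied 1.21-fold over all mice, less than the 2.09-fold range of the summed share. Its mean was 0.971 ± 0.056 on FO and 1.004 ± 0.063 on CO, and FO mouse 3 lay above 4 of the 5 CO mice.

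Single genes also moved with the mouse. Of the 73 members tested, 67 in CO mouse 1 lay above their own median over the 10 mice, as did 60 in each of FO mice 4 and 5, 51 in FO mouse 3 and 47 in FO mouse 1. The number was 30 in CO mouse 4, 28 in CO mouse 2 and 15 in CO mouse 3. It was lowest in the mice rich in Malat1, with 5 in CO mouse 5 and 2 in FO mouse 2. CO mouse 1 was thus at the upper end of the order and FO mouse 2 at the lower end. The other FO mice all lay above the other CO mice.

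**Figure D2:**
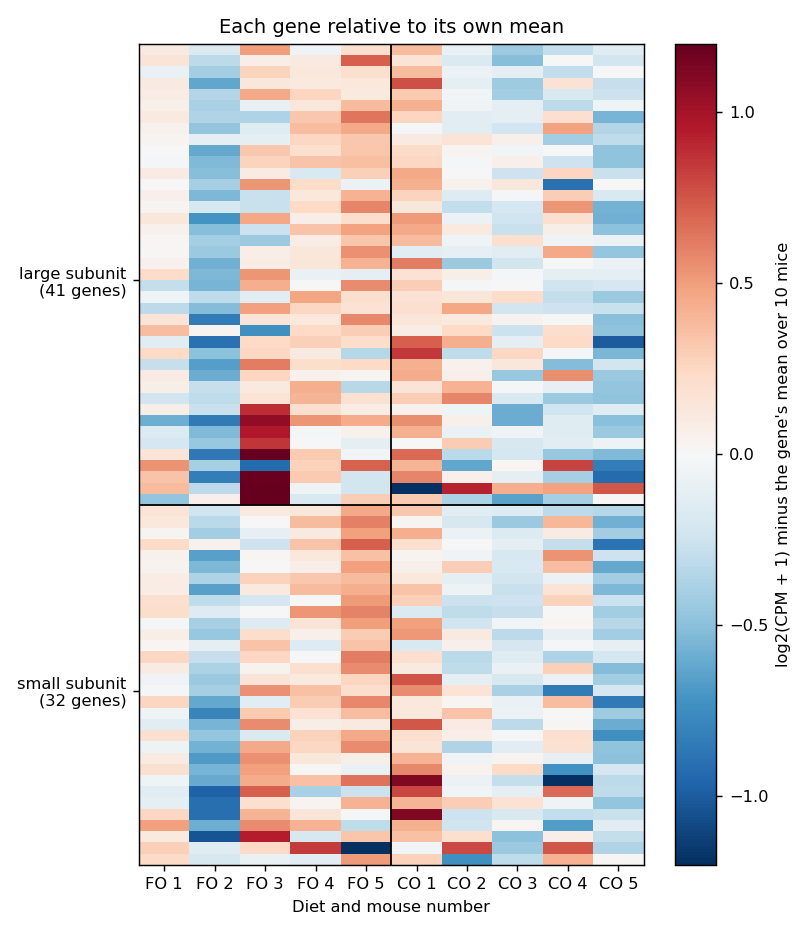
Each row is 1 of the 73 members tested, ordered by mean level within its subunit, each column is a mouse, and the color is log2(CPM + 1) minus the gene's mean over the 10 mice, with the darkest colors standing for any difference beyond the ends of the scale. Columns stand out more than the border between the diets: FO mouse 2 and CO mouse 5 are blue over nearly all rows, and CO mouse 1 is red over most.

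Between the diets, 1 ribosomal protein gene passed the study's threshold of an unadjusted p under 0.05 in edgeR's quasi-likelihood test. This was Rps19, higher on FO, and 0 members were lower. Over all 2438 genes tested 71 passed (2.91%), 41 of them higher on FO (1.68%) and 30 lower (1.23%), so the share of members called was no larger than that of genes in general. After Benjamini-Hochberg adjustment edgeR called 0 of the 2438 genes and DESeq2 called 1 that is no member, and the adjusted p of every member was 0.998 or above in edgeR. In 10 genes (0.41%) the CPM of the diets did not overlap, and 0 of the 73 members were among them.

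The log2 fold changes of the members, FO over CO, were small and mostly positive. They ran from −0.44 to 0.50 with a median of 0.09, beside 0.003 over all genes tested, and the median standard error of a member was 0.25. A positive value was found for 59 members (80.8%) and a negative one for 14, against 50.6% positive among all genes tested. Members share libraries and move together from mouse to mouse, so their number does not act as a number of replicates. For the large subunit 33 of 41 values were positive, with a median of 0.10 and a range from −0.15 to 0.40. For the small subunit 26 of 32 were positive, with a median of 0.09 and a range from −0.44 to 0.50. The median over all members was 0.02 without CO mouse 5, where that over all genes was also 0.02, and 0.22 without FO mouse 2, where 69 of 71 members were positive. Scaled by total count alone, 72 of 73 were negative, with a median of −0.47 where the median of all genes was −0.55.

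**Figure D3:**
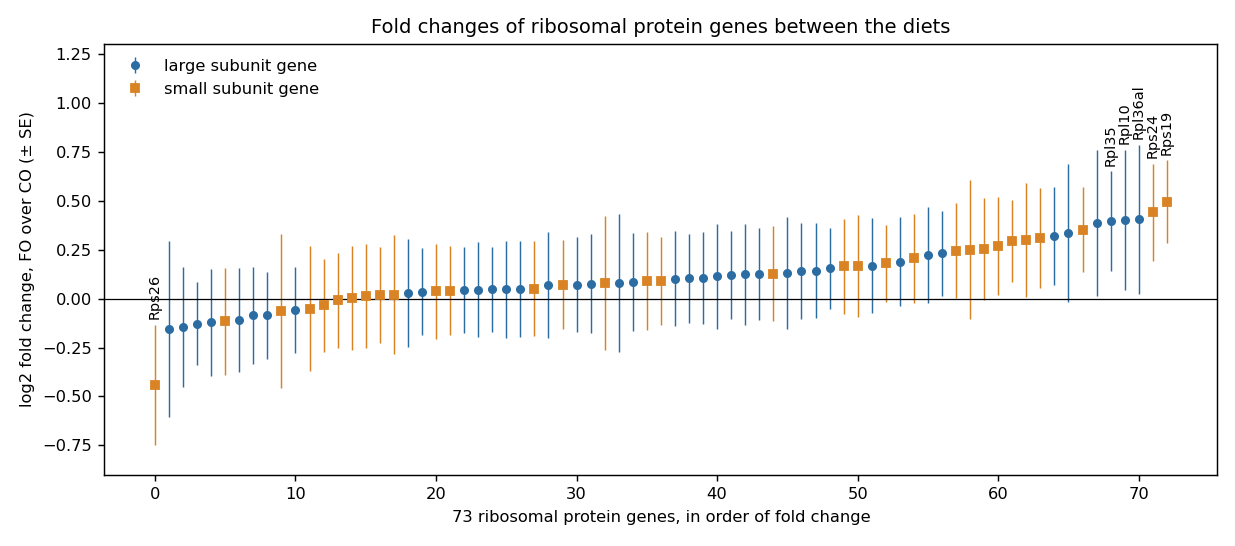
The log2 fold change (FO over CO, vertical axis) of each of the 73 members tested is plotted in rank order with its standard error as a bar, circles for large and squares for small subunit genes. Most values lie between 0 and 0.25, the subunits are mixed along the order, and Rps26 (−0.44) and Rps19 (0.50) are its ends.

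Rps19, a small subunit protein needed to mature the 18S ribosomal RNA and mutated in Diamond-Blackfan anaemia, lies on chromosome 7 from 24884592 to 24889811. Its level in FO mice 1 to 5 was 565, 438, 490, 704 and 737 CPM. In CO mice 1 to 5 it was 432, 394, 403, 486 and 366 CPM. All 5 FO mice lay above the CO median, but FO mouse 2 was below CO mouse 4, so the groups overlapped. The means were 586.8 ± 130.6 CPM on FO and 416.3 ± 45.5 CPM on CO (SD, n = 5 each), a log2 fold change of 0.50 (SE 0.21, edgeR p = 0.0297, adjusted p = 0.998, two-sided exact permutation p = 0.0159). Per 1000 counts on members, which takes out the level of the whole family, Rps19 had 20.2 ± 2.52 counts on FO and 16.1 ± 2.03 on CO, again with overlap. The edgeR call was lost without FO mouse 4 (0.39), FO mouse 5 (0.40), CO mouse 1 (0.49), CO mouse 2 (0.46), CO mouse 3 (0.48) or CO mouse 5 (0.45), fits in which 2.64%, 2.29%, 3.25%, 2.38%, 3.53% and 3.13% of all genes were called. It was also lost when genes with any count were tested (0.53, with 4.15% of all genes called) and when scaling used the total count alone (1.48%), where its log2 fold change was −0.14 and the median of all genes −0.55. The call was kept with DESeq2 (2.54% of all genes called), RLE factors (2.99%), at least 10 counts in every mouse (2.37%), Rn45s left out (3.04%) and both mice rich in Malat1 left out (3.93%). It was kept as well without FO mouse 1 (2.44%), FO mouse 2 (7.26%), FO mouse 3 (2.46%) or CO mouse 4 (2.9%). The annotation names 13 Rps19 pseudogenes, and 81.1% of the 50-base words of its coding sequence also occur in transcripts of other genes, so that reads could have been shared between them in the counting.

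**Figure D4:**
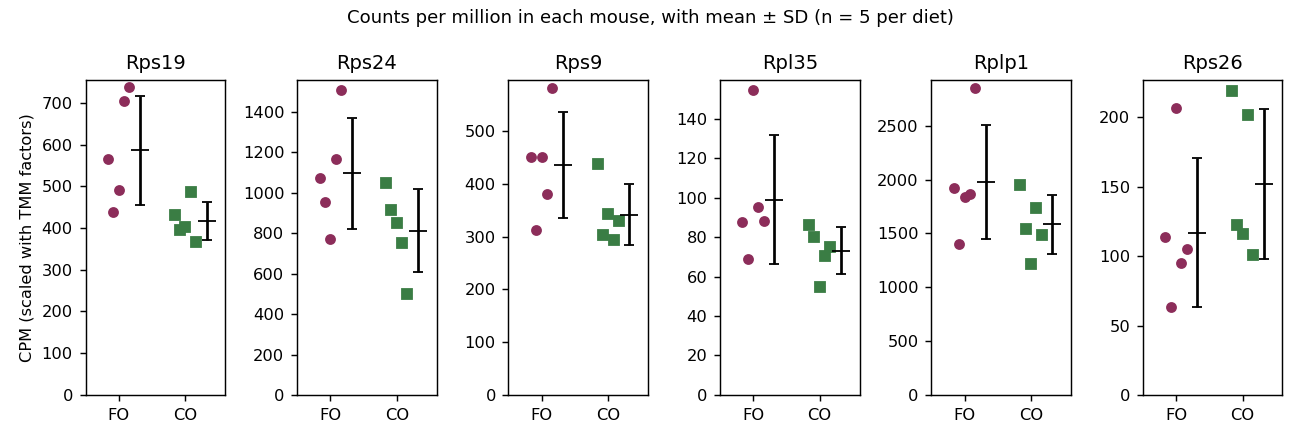
Each panel shows 1 gene in CPM (vertical axis from 0), with 1 point per mouse, circles for FO and squares for CO, and the mean ± SD (n = 5) beside them. FO and CO points overlap in every panel, and in Rps19 only FO mouse 2 (438 CPM) and FO mouse 3 (490 CPM) come near the highest CO mouse (486 CPM).

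The other small subunit genes with the smallest p-values did not pass the threshold. Rps24, another protein of 18S maturation and a Diamond-Blackfan anaemia gene, had 1076, 955, 774, 1169 and 1510 CPM in FO mice 1 to 5. In CO mice 1 to 5 it had 1050, 916, 850, 752 and 497 CPM. FO mouse 3 was below 3 CO mice, and the log2 fold change was 0.44 (SE 0.25, edgeR p = 0.095, two-sided exact permutation p = 0.103). Rps9, a protein that binds the 18S RNA early in assembly, had 451, 313, 452, 380 and 583 CPM on FO and 439, 304, 344, 294 and 331 CPM on CO. Its log2 fold change was 0.35 (SE 0.22, edgeR p = 0.122, two-sided exact permutation p = 0.103), with FO mouse 2 below 3 CO mice. Without FO mouse 5 it was 0.22, and without FO mouse 2 it was 0.45 and passed the unadjusted threshold, as did 7.26% of all genes tested then.

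Rps26, which lies by the exit channel of the mRNA and contacts the sequence before the start codon, had the lowest log2 fold change of all members tested. Its CPM in FO mice 1 to 5 was 114, 63.4, 206, 95.1 and 105. In CO mice 1 to 5 it was 219, 123, 116, 202 and 101. All FO mice but mouse 3 lay below the CO median, and mice of the diets overlapped. The log2 fold change was −0.44 (SE 0.31, edgeR p = 0.169, two-sided exact permutation p = 0.254). Without FO mouse 3 it was −0.70 and passed the unadjusted threshold, as did 2.46% of all genes tested then, whereas it was −0.27 without FO mouse 2 and −0.28 without CO mouse 4. Per 1000 counts on members it had 4.001 ± 1.66 counts on FO and 5.69 ± 1.25 on CO (SD, n = 5 each). Rps25, which is needed for initiation at some internal ribosome entry sites, had 50.4 to 127.7 CPM on FO and 68.2 to 126.3 CPM on CO, a log2 fold change of −0.12 (SE 0.27).

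Besides Rps24, the small subunit mRNAs of highest CPM were Rps12, Rps14, Rps21 and Rps29. Rps12 led with 2228, 1703, 2168, 2204 and 2741 CPM on FO and 2505, 1832, 1798, 1613 and 1585 CPM on CO. CO mouse 1 stood well above the other CO mice and within the FO range, and the log2 fold change was 0.24 (SE 0.24). Rps14, the protein lost with the deleted long arm in 5q− syndrome, had a log2 fold change of 0.31 (SE 0.25), Rps21 of 0.05 (SE 0.24) and Rps29 of −0.03 (SE 0.24). Rps6, the protein phosphorylated by the S6 kinases downstream of mTOR, had 45.9 to 103.2 CPM on FO and 43.0 to 93.0 CPM on CO, with a log2 fold change of 0.30 (SE 0.29). Rps3, which also takes part in DNA repair, had one of 0.04 (SE 0.23), and Rpsa, also known as the laminin receptor, one of 0.18 (SE 0.20).

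Among large subunit genes, Rpl35, a protein at the peptide exit tunnel, had the smallest p. Its CPM was 87.5, 68.8, 154.8, 95.1 and 88.4 in FO mice 1 to 5 and 86.4, 79.9, 54.8, 70.3 and 74.8 in CO mice 1 to 5. FO mouse 3 was far above all others and FO mouse 2 was below 4 of the CO mice. The log2 fold change was 0.40 (SE 0.25, edgeR p = 0.136, two-sided exact permutation p = 0.0873). Rpl10, which joins the large subunit last and completes it, also had a log2 fold change of 0.40 (SE 0.36), with 129.0 CPM in FO mouse 3 and 86.4 CPM in CO mouse 1 each the highest of their diet. Without FO mouse 3 the log2 fold change was 0.22 for Rpl35 and 0.13 for Rpl10, and without FO mouse 2 it was 0.64 for Rpl10. FO mouse 3 and CO mouse 1 had the fewest counts outside Rn45s, 46470 and 45177, and whether depth played a part was not tested.

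The large subunit genes with the smallest p in the other direction had small log2 fold changes. Rpl12, at the base of the stalk, had 276, 204, 200, 288 and 341 CPM in FO mice 1 to 5 and 352, 261, 309, 263 and 257 CPM in CO mice 1 to 5, with FO mice 2 and 3 below every CO mouse. The log2 fold change was −0.13 (SE 0.21), and per 1000 counts on members Rpl12 had 9.05 ± 1.35 counts on FO and 11.1 ± 1.46 on CO (SD, n = 5 each). Rpl32 (−0.12, SE 0.27) and Rpl18 (−0.11, SE 0.27) had log2 fold changes smaller than their standard errors.

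The stalk, on which the elongation factors dock, is formed by Rplp0 and the acidic proteins Rplp1 and Rplp2. Rplp1 had 1925, 1398, 1839, 1867 and 2845 CPM on FO and 1947, 1539, 1220, 1732 and 1483 CPM on CO. FO mouse 5 was the highest and CO mouse 3 the lowest, with the rest intermixed, and the log2 fold change was 0.32 (SE 0.25, edgeR p = 0.220, two-sided exact permutation p = 0.190). Without FO mouse 5 it was 0.15. Rplp2 had a log2 fold change of 0.22 (SE 0.24), with 1553 to 2477 CPM on FO and 1297 to 2279 CPM on CO. Rplp0, a common reference gene in RT-PCR, had 187.2 to 425.8 CPM on FO and 206.1 to 438.6 CPM on CO, a log2 fold change of 0.08 (SE 0.25). All 3 values were positive and 0 passed the threshold.

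Rpl5 and Rpl11 form with 5S RNA the particle that binds Mdm2 and stabilizes p53 when ribosome assembly fails. Their log2 fold changes were 0.07 (SE 0.27) and 0.17 (SE 0.24). Rpl13a, which leaves the ribosome to silence inflammatory mRNAs after interferon gamma, had 639.6 to 1026 CPM on FO and 690.7 to 1103 CPM on CO, a log2 fold change of 0.04 (SE 0.22). Rpl38, needed to translate a subset of Hox mRNAs, had one of 0.03 (SE 0.22) and Rpl41, the smallest ribosomal protein, one of 0.10 (SE 0.24). Rpl21 (0.23, SE 0.22) and Rpl37a (−0.09, SE 0.25) were among the large subunit genes of highest CPM. In Rpl37a the FO mice other than mouse 2 lay between 599.5 and 612.9 CPM, within the CO range of 414.0 to 950.3 CPM.

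Among paralogs of family members, levels per kb of coding sequence were 148.3 CPM for Rpl22l1, 122.0 for Rps27l and 106.0 for Rpl36al, below the large and small subunit medians given further on. Rpl22l1, the paralog of Rpl22, had 25.8 to 81.9 CPM on FO and 27.6 to 88.2 CPM on CO, a log2 fold change of 0.08 (SE 0.35). Rps27l, which p53 induces, had 6.55 to 49.4 CPM on FO and 19.7 to 47.9 CPM on CO (−0.06, SE 0.39). The lowest FO values rested on few reads, 4 counts in FO mouse 3 for Rpl22l1 and 2 counts in FO mouse 5 for Rps27l. Rpl36al had a log2 fold change of 0.40 (SE 0.38) and Rps4l one of 0.02 (SE 0.30), at 16.8 to 71.0 and 23.7 to 39.3 CPM on FO. The germ cell paralog Rpl39l had 2 counts over all mice, Rpl3l of striated muscle had 3, and Rpl10l, known from testis, and Rps27rt had 0.

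Levels differed far more between genes than between diets. Per kb of coding sequence, and averaged over the 10 mice, the highest levels were those of Rplp1 (5203 CPM per kb), Rplp2 (5179), Rps12 (5146), Rps29 (4741) and Rps21 (4662). The lowest among the members tested were those of Rpl10a (42.7 CPM per kb), Rpl29 (48.4) and Rps2 (56.4). Highest and lowest differed 121.9-fold, for proteins of which the ribosome holds most in near equal copy number. Coding length leaves out the untranslated parts of the mRNA, and the coding sequences of Rps29 and Rps21 have only 168 and 249 bases. The 5 members of highest CPM held 28.8% of the summed CPM of the family. The median level was 500.3 CPM per kb for 41 large and 668.4 CPM per kb for 31 small subunit genes. These genes have many pseudogenes, and how reads with several places in the genome were counted is not given in the sources used here. Of the 85 members with a coding sequence in GENCODE M21, 31 had every 50-base word also in transcripts of other genes, and the median share of such words was 91.3%. Across the 81 of these outside chromosome 15, the level per kb and the shared percentage had a Spearman correlation of 0.02. Across the 72 that passed the filter it was −0.10, and both are given as a description. Rps12 was shared in full and was among the highest, and Rps27 was shared in full and had 2 counts in all.

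The 13 members that were not tested fall into separate cases. Rpl3, Rpl8, Rpl30 and Rpl37 lie on chromosome 15 and were listed at 0 in every mouse. All 848 rows of the table that matched a chromosome 15 gene of RefSeq by symbol, 705 of them protein-coding, were listed at 0 in every mouse, whereas on the other autosomes 56.1% to 78.3% of protein-coding genes had a count. The 0 of these 4 genes, among them Rpl3 and Rpl8 of the catalytic core, is therefore no measure of their level, and the reason is not given in the sources used here. Another 3 members off that chromosome, Rpl26, Rpl10l and Rps27rt, were also at 0. A count of 0 allows up to 0.000634% of the counts without Rn45s in the deepest library and 0.00664% in the shallowest, for reads that the counting could assign. Of the coding words of Rpl26, a protein of every ribosome, 87.3% occur in other transcripts, as do 100% of those of Rps27rt and 12.5% of those of Rpl10l, so for the first 2 the 0 may not measure the level. Rpl34, Rps27, Rpl39l and Rpl3l had 1 to 3 counts in all. Rpl34 and Rps27 encode proteins of the cytosolic ribosome, and of their coding words 72.2% and 100% occur in other transcripts. Rpl15 had 15, 11, 2, 13 and 1 counts on FO and 2, 6, 8, 23 and 6 on CO, and Rpl7l1 had 19, 24, 2, 20 and 7 on FO and 2, 7, 8, 16 and 10 on CO. Both were too low for the filter of the main fit and overlapped between the diets. With Rn45s left out of the counts, 75 members passed the filter, 43 of them of the large subunit. Of the coding words of Rpl15, 100% occur in other transcripts, so its counts may not measure its level.

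**Figure D5:**
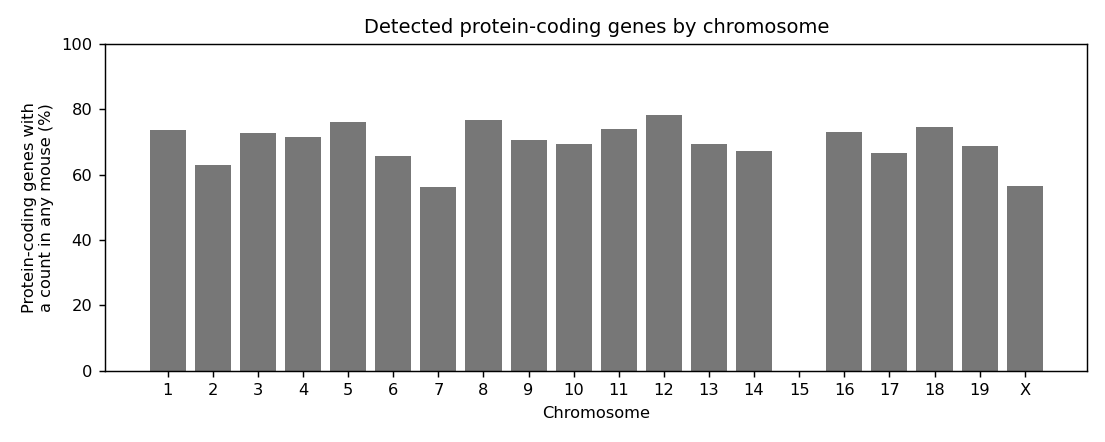
Bars give the percentage of protein-coding genes with at least 1 count in any mouse, by chromosome, for symbols matched to RefSeq. Chromosome 15, which carries Rpl3, Rpl8, Rpl30 and Rpl37, is at 0, and the other autosomes lie between 56.1% and 78.3%.

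Lists of genes that work with the ribosomal proteins held no called gene. Of 77 genes of mitochondrial ribosomal proteins, which build the separate ribosome of the mitochondrion, 6 had enough counts to be tested, with a median log2 fold change of 0.22 and 4 positive values. Of 95 listed ribosome biogenesis genes, such as those for RNA polymerase I and nucleolar processing factors, 90 were in the table and 22 were tested, with a median of 0.13 and 17 positive values. Of 25 other mRNAs with a TOP element, mostly translation factors, 15 were tested, with a median of 0.07 and 9 positive values, and 7 of the untested lie on chromosome 15. Of the ribosomal protein genes that the name rule misses, Fau had a log2 fold change of 0.05 and Gnb2l1 of 0.08. In each of these lists 0 genes passed an unadjusted p under 0.05 in edgeR, where 2.91% of all genes tested did.

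Markers of other cells that a lung sample can hold were also looked up. The 8 lymphocyte markers in the table summed to 19.8 to 65.5 CPM on FO and 0 to 90.6 CPM on CO. Ptprc, which marks white blood cells in general, had the most counts of them (125 over all mice). Of 7 red cell genes only Alas2 had counts (41.4 to 65.5 CPM on FO and 2.10 to 76.7 CPM on CO). The haemoglobin genes were at 0 in every mouse. How reads with several places in the genome were counted is not given, so this 0 may not measure haemoglobin mRNA. The 8 cardiac markers all had counts and summed to 58.9 to 241.5 CPM on FO and 26.6 to 166.7 CPM on CO, highest in FO mouse 2 and CO mouse 5 of their diets. The part of these cells in the ribosomal protein levels was not tested.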

How the data were processed

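Whole lung RNA of 5 FO and 5 CO mice was sequenced as single-end reads. The authors deposited the raw read count of each gene symbol, made with STAR 2.4.0f1, SAMtools 0.1.19 and htseq-count on mm10, without normalization. Libraries were made with TruSeq RNA v2 or riboZero and run on several sequencers, and which mouse had which is not given in the sources used here, nor are the annotation, strand setting and treatment of multi-mapped reads, so overlapping genes and pseudogenes could share counts. Diets were taken from the sample labels, and no columns were identical.

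Counts went into edgeR 4.0.16 under R 4.3.3 (TMM, filterByExpr at its defaults of 10 for the count and 15 for the total, quasi-likelihood test of diet alone), which left 2438 of 24059 genes. A gene was called at an unadjusted p under 0.05, the study's threshold, with Benjamini-Hochberg adjustment over all genes tested beside it. CPM use TMM-scaled library sizes. Levels of members outside the filter are counts. Named members were also given two-sided exact permutation tests over the 252 assignments of mice to diets. The scripts were tested on simulated data.

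Members and lists were chosen with earlier results of these data known, so lists are described by counts and medians without a test. Named genes are the called members, the 6 with the smallest p in each direction, the 5 of highest CPM in each subunit, and members fixed by role. Rpl29, Rpl10a, Rps2, Fau, Gnb2l1 and the untested members that are not among those fixed by role (Rpl3, Rpl8, Rpl15, Rpl26, Rpl30, Rpl34, Rpl37 and Rps27) fall outside that rule and were named after their values were seen. Some genes that the rule names are not reported here. Promoters come from RefSeq (GRCm38.p6) and coding sequences from GENCODE M21. Alternatives were DESeq2 1.42.0, RLE factors, total count alone, genes with any count, at least 10 counts in every mouse, leaving out Rn45s, the replicate number as a block, leaving out each mouse, and leaving out FO mouse 2 with CO mouse 5. Totals were 229766 to 1124963 counts. With 45177 to 473254 counts outside Rn45s, the floor of 3 counts stood for 0.00664% to 0.000634% of them. Intervals and floors cover counting error only.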

Additional observations from a re-analysis of the deposited data

Results flagged for a closer look

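Library measures and named members were looked at in 76 sets of 5 mice, each set being 1 measure in 1 diet. An end mouse stood far from its neighbor by Dixon's ratio in 6 sets, where chance gives about 3.8. Malat1 took 8.53% of counts other than Rn45s in FO mouse 2, against 0.18% to 0.93% in the other FO mice. In CO mouse 5 it took 6.15%, against 0.14% to 1.05% in the other CO mice. Small nucleolar RNA genes took 2.35% in FO mouse 2, against 0.10% to 0.45% in the other FO mice. Among members, Rpl37a had 361.5 CPM in FO mouse 2, where the other FO mice had 599.5 to 612.9 CPM. Rps12 had 2505 CPM in CO mouse 1, where the other CO mice had 1585 to 1832 CPM. Rpl10 had 86.4 CPM in CO mouse 1, where the other CO mice had 36.7 to 46.0 CPM.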

How the results depend on the processing

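Scaling by total count alone moved the most values: 0 members were called higher, 36 genes were called over the whole table, and the median log2 fold change was −0.47 for all members and for the large subunit and −0.48 for the small subunit, where that of all genes was −0.55. The log2 ratio of the summed CPM was −0.43 and the log2 fold change of Rps19 was −0.14. With genes of any count 0 members were called higher, 587 genes were called over the whole table, and Rps19 had 0.53. Requiring 10 counts in each mouse left 15 genes called. With the replicate number as a block 0 members were called higher, 55 genes were called, and Rps19 had 0.48. The numbers do not pair the mice, since deviations of same-numbered mice correlated at −0.12 on average (−0.41 to 0.03 over 5 pairs), against 0.03 for other pairs. Leaving out each mouse in turn gave 0 to 2 members called higher, 0 to 1 called lower, 54 to 154 genes called over the whole table (154 without FO mouse 2) and a log2 fold change of 0.39 to 0.59 for Rps19. The median log2 fold change was 0.02 to 0.22 for members, 0.03 to 0.22 for the large and 0.004 to 0.24 for the small subunit, and the log2 ratio of summed CPM was 0.06 to 0.25. The added calls were Rps9 without FO mouse 2 (0.45) and Rps26 without FO mouse 3 (−0.70). Rps19 was also called with DESeq2 (0.49), RLE factors (0.49), Rn45s left out (0.50) and both mice rich in Malat1 left out (0.55). The large-to-small differences kept within the spread between mice under every alternative run. The causes of these changes were not tested, and the low counts limit all single members.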
